A study of Vitis vinifera with 42 samples.

Results

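The genes described here are the 148 genes of grape berry that carry a gibberellin or DELLA term in the orthology annotation of the deposited expression table, out of 28940 genes in all. They were chosen by that text alone, with no measured value used. Gibberellins are diterpenoid hormones that promote cell elongation and division, and sprays of gibberellic acid are a standard way to enlarge seedless table grapes. The last steps of the pathway are catalysed by 2-oxoglutarate-dependent dioxygenases: GA20-oxidase (GA20ox) and GA3-oxidase (GA3ox) make the active hormones and GA2-oxidase (GA2ox) inactivates them. The receptor GID1 is related to carboxylesterases and, when it holds the hormone, binds the DELLA proteins, which are GRAS-family repressors of growth, so that they are degraded.

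The berries were Vitis vinifera cv. Cabernet Sauvignon and they were separated from their seeds before RNA extraction. In T8, clusters were enclosed in paper bags at E-L 35, when berries begin to colour and soften, and were uncovered at E-L 36, with samplings at E-L 36, 37 and 38 (9 libraries). In T1, clusters were bagged at E-L 29, when berries are peppercorn-sized and 3 weeks past flowering, and stayed bagged until harvest, with 5 samplings, the first at E-L 31, when berries are pea-sized, and the last at harvest, E-L 38 (15 libraries). T2, the control, stayed in the light and was sampled at those 5 stages and at E-L 29 (18 libraries). Each of the 14 combinations of treatment and stage had 3 biological replicates, A, B and C. The study treats the T8 berries of E-L 36 as bagged and those of E-L 37 as uncovered.

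The 148 genes held 14 with a GA20ox term, 23 with a GA3ox term, 6 with a GA2ox term, 55 with the GID1 term and 50 with the DELLA term. The term was the best-ranked one for 116 of them, and only 17 matched it with a bit score of at least 300, a limit set after the annotation was seen. These 17 are called close matches below: 4 GA20ox, 3 GA3ox, 4 GA2ox, 2 GID1 and 4 DELLA genes. The lowest of them, VIT_214s0068g01610 (DELLA term), scored 300 and the next, VIT_204s0044g01520 (GA20ox term), 344, while the first genes outside, VIT_218s0089g00380 and VIT_218s0089g00400 (both GID1 term), scored 273 and 270. The other 131 carry the term through a weaker match and can be other members of the dioxygenase, carboxylesterase and GRAS families: 17 of the 55 GID1-term genes had another term ranked first, and the BLAST text of several names a probable carboxylesterase, an SRG1-like protein or an aminocyclopropane carboxylate oxidase homolog. Even among close matches the 2 annotations could conflict, since the BLAST text of VIT_210s0003g03490 (GA2ox term, bit score 680) names an oligopeptide transporter and that of VIT_214s0030g00440 (GID1 term, bit score 695) an LRR receptor-like kinase. Neighbouring copies with like sequence can share reads, and how reads matching several copies were counted is not stated.

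Levels were given as FPKM, a count of sequenced fragments divided by transcript length and by the size of the library, which allow a comparison between genes of different length. The libraries summed to 561036 to 672526.1 FPKM and had 21090 to 23537 genes above 0, but no read counts per gene were used, so no counting interval can be given. In all, 95 of the 148 genes averaged at least 1 FPKM in some group and were tested, 12 of them close matches. By term the 95 were 9 GA20ox, 15 GA3ox, 5 GA2ox, 37 GID1 and 29 DELLA genes. The other 53 never averaged more than 0.98 FPKM, and 1 of these was listed at 0 in every library. The tested genes averaged 0.11 to 160.69 FPKM over the 42 libraries, with a median of 5.48 FPKM. Fold changes are differences of log2(FPKM + 1), which understate the change of low genes, and a call means an adjusted p under 0.05 in a two-sided limma test. Marker genes gave 2 further facts on these libraries. Of the 24 light-harvesting genes 21 were tested, and 18 of these were called lower in T1 than in T2 berries at E-L 31. At E-L 35, 36, 37 and 38 the number called lower in T1 was 13, 6, 7 and 3. In T8 at E-L 36, 7 were lower than in T2 and 1 was higher. The 23 seed storage and late-embryogenesis genes summed to 832 to 2320 FPKM in T8 berries at E-L 36, against 256 to 369 in T1 and 266 to 323 in T2, and to 852 to 957 FPKM in T8 berries at E-L 37, against 212 to 369 in T1 and 230 to 302 in T2. At pea size, E-L 31, the sums were 10400 to 46200 FPKM in T1 and 814 to 9950 in T2. Of the 23 seed genes, 4 to 7 were at 0 in any given group. In whole berries, fewer cells of a type and less RNA per cell cannot be told apart.

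In light-grown T2 berries the 4 tested close matches for the gibberellin-making oxidases were expressed at the youngest stage and were at or near 0 afterwards. The weaker matches did not all follow. At E-L 31 against E-L 29, 3 of the 9 tested GA20ox-term genes were called lower and 2 higher. Of the 15 GA3ox-term genes, 7 were lower and 1 higher. The lower genes of each class include its 2 tested close matches, and the higher ones are all weaker matches. Of all genes tested, 31.3% were lower and 19.2% higher at this step. GA20ox gene VIT_204s0044g01520 had 11.59, 3.1 and 3.96 FPKM at E-L 29 and was listed at 0 in all other 39 libraries of the study, so that every library of the youngest berries exceeded every later one. The drop to E-L 31 was 2.67 on the log2 scale (SE 0.19, adjusted p = 2.91e-13). The second tested GA20ox close match, VIT_204s0044g01650, averaged 0 ± 0 FPKM at E-L 31 and 1.98 ± 0.731 FPKM at E-L 29 (SD, n = 3 each). The 2 tested GA3ox close matches behaved alike: VIT_209s0002g05270 averaged 0.07 FPKM at E-L 31 against 1.38 at E-L 29, and VIT_209s0002g05300 was at 0 at E-L 31 against 1.39 FPKM at E-L 29. All 4 falls were called. Each of these genes averaged at least 1 FPKM only at E-L 29, so it was tested only because it was high there. The calls therefore lend no separate support to the pattern, and levels this low may rest on few reads. With untested close matches included, the 3 GA3ox genes summed to 2.85, 0.283 and 0.43 FPKM at E-L 29, 31 and 38. The 4 GA20ox genes summed to 8.87, 0.473 and 0.503 FPKM. Some weaker matches were also highest in the youngest berries. VIT_209s0002g05320 (GA20ox term) had 13.98, 16.05 and 10.85 FPKM at E-L 29 and was then listed at 0 in all but 1 of the other 39 libraries. VIT_204s0044g02010 (GA3ox term, named a GA3-oxidase 4-like protein by BLAST) averaged 1.91 ± 0.499 FPKM at E-L 31 and 25.5 ± 2.74 FPKM at E-L 29 (SD, n = 3 each; log2 fold change -3.20, SE 0.22, adjusted p = 9.76e-14), and it was still at 1.93 FPKM at E-L 38. VIT_213s0067g01150 (GA20ox term) had its highest mean later, with 52.84 ± 5.1 FPKM at E-L 31 and 32.7 ± 17.8 FPKM at E-L 29 (SD, n = 3 each).

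**Figure D1:**
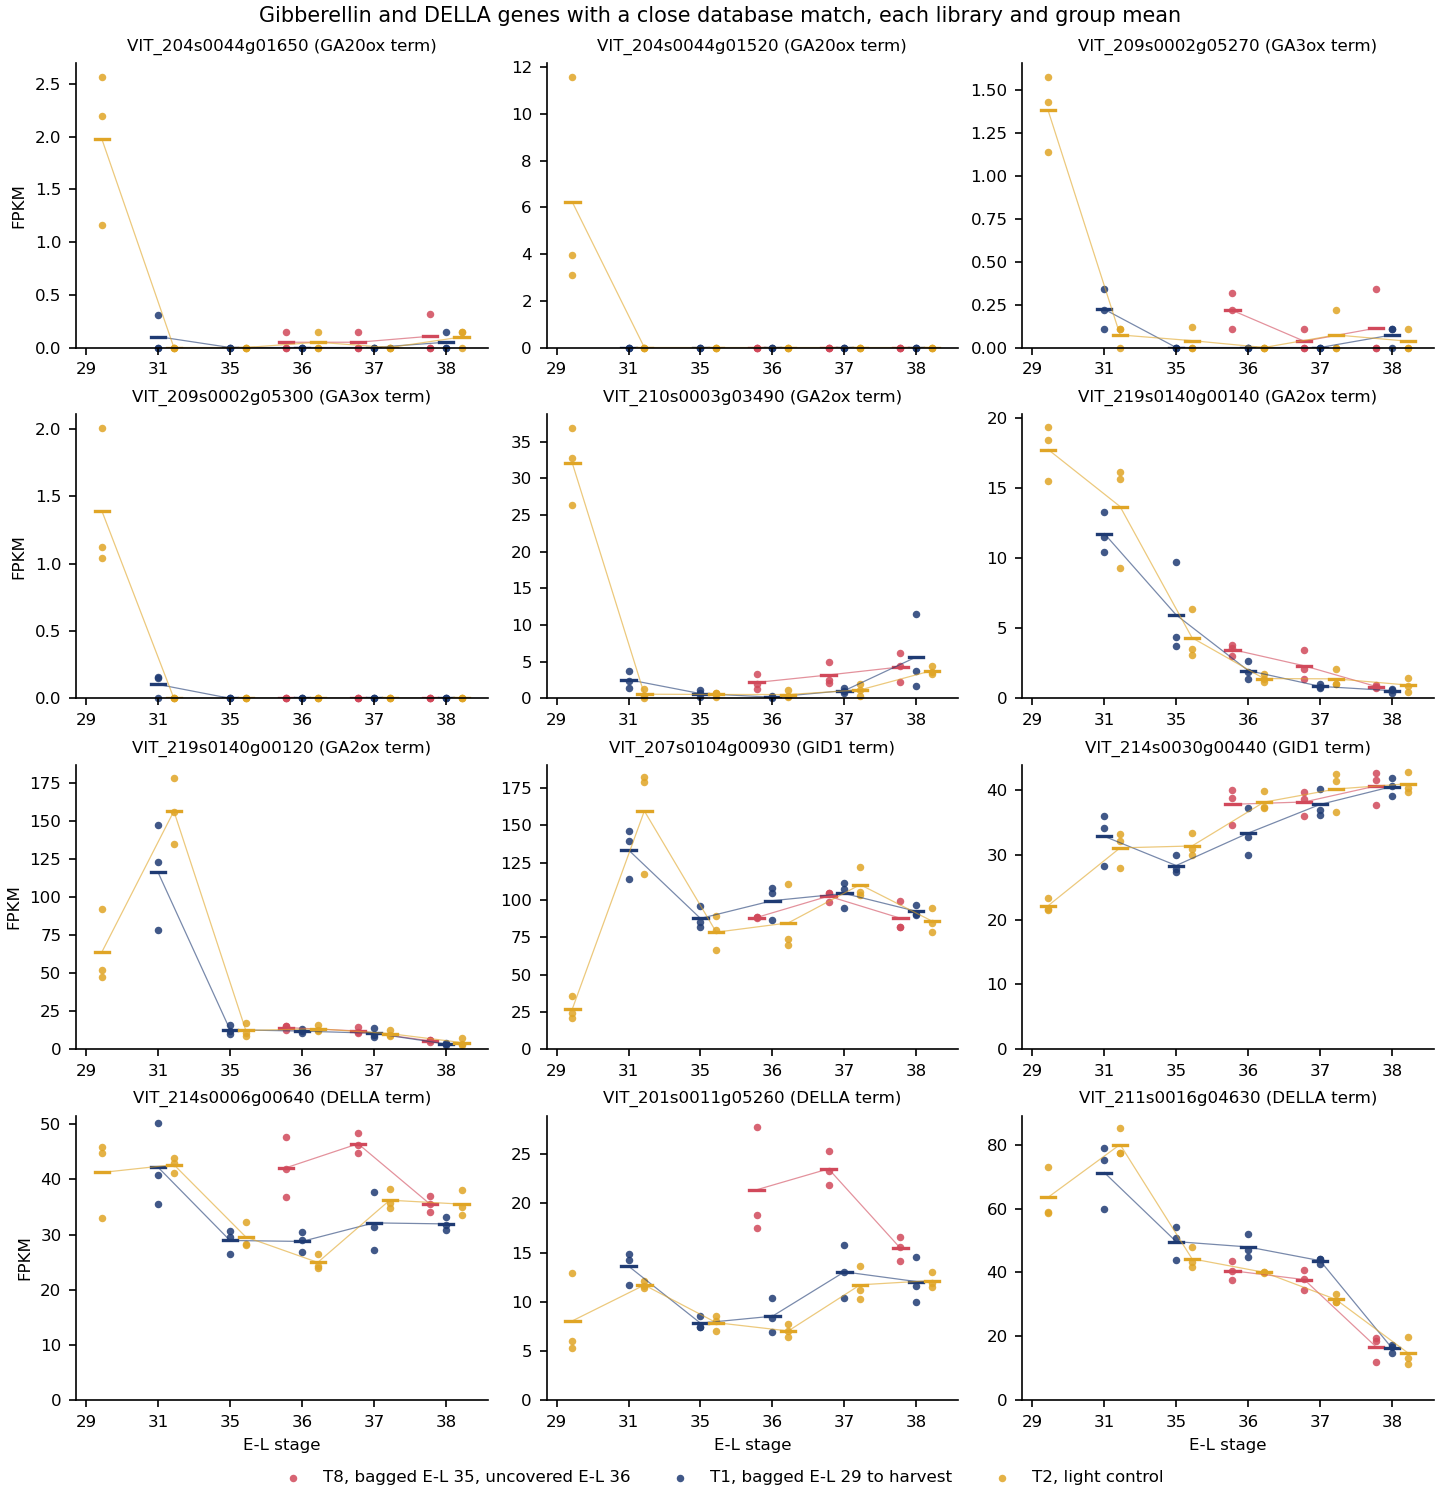
FPKM of the 12 tested close matches by E-L stage, one panel per gene. Points are the 3 libraries of a group, short bars are group means and colours are T8, T1 and T2. GA20ox and GA3ox genes are near 0 after E-L 29, GA2ox genes decline by E-L 35, and the T8 libraries of the DELLA genes VIT_214s0006g00640 and VIT_201s0011g05260 sit above the others at E-L 36 and 37.

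Not all tested GA2ox close matches fell as early as those GA20ox and GA3ox genes. GA2ox gene VIT_219s0140g00120, one of a pair of adjacent gene identifiers that BLAST names gibberellin 2-beta-dioxygenase 1, averaged 64.03, 156.73, 12.32, 13.41, 10.25 and 4.35 FPKM over the 6 stages from E-L 29 to E-L 38. The rise to E-L 31 was 1.33 on the log2 scale (SE 0.27, adjusted p = 9.28e-05), the step to E-L 35 was -3.61 (SE 0.27, adjusted p = 9.64e-13) and that to E-L 38 was -1.16 (adjusted p = 0.00135). Its neighbour VIT_219s0140g00140 averaged 17.75, 13.68, 4.32, 1.41, 1.39 and 0.95 FPKM over the same 6 stages, and its steps to E-L 35 (-1.48) and to E-L 36 (-1.10) were called. VIT_210s0003g03490, the gene with conflicting annotation, had 0, 0.37 and 1.32 FPKM at E-L 31, against 26.35, 36.92 and 32.82 FPKM at E-L 29 (log2 fold change -4.48, SE 0.40, adjusted p = 5.24e-11). It averaged 1.15 FPKM at E-L 37 and 3.79 FPKM at E-L 38, a called rise that was lost in 4 of the 6 fits without 1 library. VIT_205s0077g00510 and VIT_205s0077g00520, weaker GA2ox matches that share 1 BLAST hit, fell together at E-L 35, by 1.61 and 1.87 on the log2 scale. A different timing was seen for VIT_219s0177g00030, which carries the GA20ox term but which BLAST names a gibberellin 2-beta-dioxygenase 8-like protein. It averaged 0.4, 23.22 and 0.27 FPKM at the first 3 stages, E-L 29, 31 and 35, and stayed at or under 0.29 FPKM on average thereafter.

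The 2 GID1 close matches and 3 of the 4 DELLA close matches were expressed at every stage, while the fourth, VIT_214s0068g01610, never averaged more than 0.04 FPKM. The GID1 gene VIT_207s0104g00930 averaged 159.62 ± 36.5 FPKM at E-L 31 and 27.09 ± 7.87 FPKM at E-L 29 (SD, n = 3 each; log2 fold change 2.52, SE 0.16, adjusted p = 2.49e-14), and the next step, to 78.39 FPKM at E-L 35, was -1.0 (adjusted p = 5.96e-06). Its later means, 84.62, 110.24 and 85.8 FPKM at E-L 36, 37 and 38, did not differ from stage to stage past the threshold. The other GID1 close match, VIT_214s0030g00440, averaged 22.15, 31.07, 31.37, 38.13, 40.15 and 40.98 FPKM over the 6 stages, with called rises to E-L 31 (0.47) and to E-L 36 (0.27). Among DELLA close matches, VIT_214s0006g00640 averaged 41.26, 42.67, 29.56, 24.95, 36.23 and 35.52 FPKM, with a called fall to E-L 35 (-0.52, adjusted p = 0.000303) and a called rise to E-L 37 (0.52, adjusted p = 0.000559). VIT_201s0011g05260 averaged 8.05, 11.69, 7.87, 7.02, 11.72 and 12.15 FPKM, and its fall to E-L 35 and rise to E-L 37 were not called after median-of-ratios scaling. VIT_211s0016g04630 went the other way in ripe berries. It averaged 63.56, 80.09, 44.27, 40.04, 31.52 and 14.78 FPKM, with called falls to E-L 35 (-0.84, adjusted p = 8.94e-06) and to E-L 38 (-1.08, adjusted p = 9.22e-07). VIT_214s0030g00440 and VIT_211s0016g04630 were picked for their bit scores after their values had been seen. The highest mean over all libraries, 160.69 FPKM, was that of VIT_216s0050g00950, a weaker DELLA-term match, which averaged 245.69 FPKM in T2 berries at E-L 38.

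Across all 95 tested genes the fall after the pea-size stage was the broadest change. At E-L 31 against E-L 29, 25 were called higher (26.3%, against 19.2% of all 21902 genes tested) and 32 lower (33.7%, against 31.3%). At E-L 35 against E-L 31, 12 were higher (12.6%, against 12.5%) and 53 lower (55.8%, against 35.7%), with a median log2 fold change of -0.58 against -0.22 over all genes. After median-of-ratios scaling 13 were higher and 47 lower, and the median over all genes was -0.06. Of the 53 lower genes before scaling, 23 were among the 37 tested genes with the GID1 term and 15 among the 29 with the DELLA term. The rest were 7 of 15 GA3ox, 4 of 9 GA20ox and 4 of 5 GA2ox genes. At E-L 36 against E-L 35, 11 were higher (against 10.6% of all genes) and 19 lower (10.9%). At E-L 37 against E-L 36, 22 were higher (24.6%) and 10 lower (8.98%), a split that turned to 14 and 20 after median-of-ratios scaling, which moved the median of all genes from 0.16 to 0. At E-L 38 against E-L 37, 10 were higher (9.64%) and 24 lower (16.1%), or 14 and 20 after that scaling. In T2 berries 36 of the 95 were highest at E-L 29 (37.9%, against 34.2% of all genes tested), 33 at E-L 31 (34.7%, against 22.1%) and 15 at E-L 38 (15.8%, against 23.5%).

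**Figure D2:**
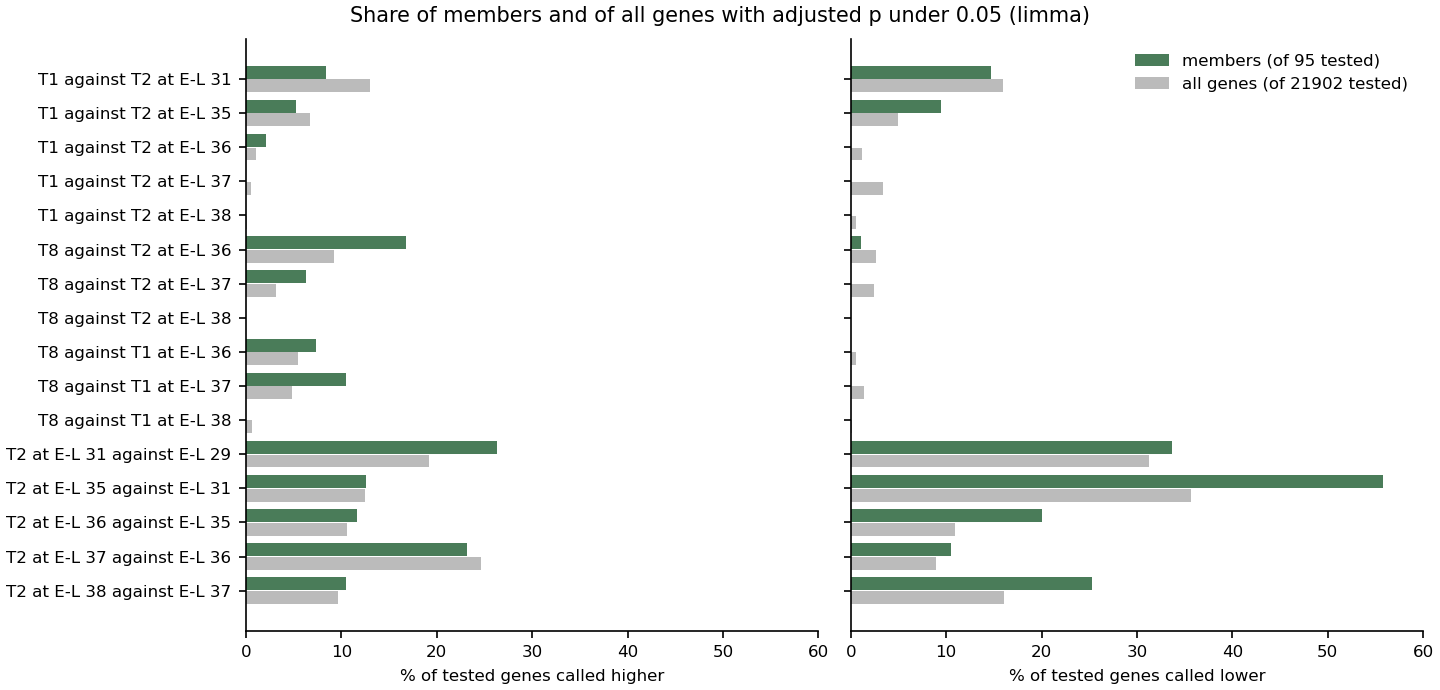
Percent of the 95 tested gibberellin and DELLA genes (green) and of all 21902 genes tested (grey) called higher (left) or lower (right) in each comparison. The widest gap is in T2 berries at E-L 35 against E-L 31, where 55.8% of the gibberellin and DELLA genes and 35.7% of all genes were lower.

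Among the 12 genes that ran against this trend and were called higher at E-L 35, 3 neighbouring genes had the largest folds. VIT_203s0063g01290, VIT_203s0063g01330 and VIT_203s0063g01220 carry a GA3ox term at a lower rank, and BLAST names each a low-quality gibberellin 20 oxidase 2-like protein. VIT_203s0063g01290 had 185.56, 196.1 and 74.56 FPKM in T2 berries at E-L 35, against 2.27, 2.18 and 2.18 FPKM at E-L 31 (log2 fold change 5.45, SE 0.54, adjusted p = 4.81e-10). VIT_203s0063g01330 averaged 21.24 FPKM at E-L 35 against 0.07 FPKM at E-L 31 (log2 fold change 4.30, SE 0.34), and VIT_203s0063g01220 averaged 14.02 FPKM at E-L 35 and was listed at 0 in all 3 libraries of E-L 31. Replicate C of E-L 35 was the lowest library for each of the 3 genes. They declined again towards harvest, to 14.2, 3.19 and 2.21 FPKM on average at E-L 38.

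Bagging from E-L 29 was first compared with light at E-L 31, to ask how early darkness touched these genes. In T1 berries 8 of the 95 were called higher (8.42%, against 13% of all genes tested) and 14 lower (14.7%, against 16%), so the shares did not exceed those of all genes. After median-of-ratios scaling the split was 10 and 11. The 14 lower genes held 8 of the 37 tested GID1-term genes and 4 of the 9 GA20ox-term genes. They also held 1 of 15 with a GA3ox term and 1 of 29 with the DELLA term. No GID1-term gene was called higher. VIT_203s0063g00710, a GID1-term gene whose first term is 2-hydroxyisoflavanone dehydratase, had 1.47, 3.3 and 1.45 FPKM in T1 berries, against 8.56, 6.63 and 9.23 FPKM in T2 berries (log2 fold change -1.61, SE 0.24, adjusted p = 7.89e-06). VIT_218s0089g00400, named carboxylesterase 18-like, had 4.22, 1.22 and 2.01 FPKM in T1, against 12.09, 7.77 and 7.01 FPKM in T2 (-1.57, SE 0.29, adjusted p = 9.67e-05). VIT_204s0008g05340, named serine hydrolase-like, had 3.03, 3.51 and 2.33 FPKM in T1, against 9.73, 9.05 and 7.02 FPKM in T2 (-1.28, SE 0.21, adjusted p = 2.83e-05). The 3 were picked by a rule that required groups without overlap.

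The dioxygenase-like genes moved in both directions at this stage. VIT_219s0177g00030, the gene that peaked at E-L 31, had 10.76, 2.99 and 11.87 FPKM in T1 berries, against 20.65, 16.15 and 32.86 FPKM in T2 berries (-1.46, SE 0.25, adjusted p = 5.43e-05). VIT_205s0049g00420, called an aminocyclopropane carboxylate oxidase homolog by BLAST, had 4.03, 2.25 and 2.17 FPKM in T1, against 9.54, 6.84 and 6.37 FPKM in T2 (-1.18, SE 0.26, adjusted p = 0.000858). Higher in T1 was VIT_209s0002g05280 (GA3ox term), with 0.8, 18.29 and 1.49 FPKM in T1, against 1.21, 0.61 and 0.59 FPKM in T2. That call (1.31, adjusted p = 0.0167) rested on replicate B of T1 and the fold was 0.25 without it. The GA2ox-term gene VIT_210s0003g03490 had 2.43, 3.75 and 1.45 FPKM in T1 and 0, 0.37 and 1.32 FPKM in T2 (1.22, SE 0.40, adjusted p = 0.0213). It was the only tested gene of the set whose deviations from its group means followed those of the seed marker score (log2(FPKM + 1) averaged over 15 seed genes), with an r of at least 0.5 over the 42 libraries (r = 0.55). With that score as a covariate its fold was 0.60 (adjusted p = 0.284). The seed marker score averaged 5.39 in T1 and 3.77 in T2 at this stage. Of the 15 genes behind it, 7 were called higher in T1 and 2 lower. A fit with this covariate called 12 genes of the set in place of 22. The share of all genes called in that fit is not given, so the drop cannot be read as particular to the set. A fit on only the 6 libraries compared called 1 gene, VIT_204s0008g05340 (adjusted p = 0.0455).

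At E-L 35, as berries began to colour, the oxidase-like genes that had risen in the light were lower under the bags. VIT_203s0063g01290 had 20.64, 25.89 and 41.49 FPKM in T1 berries, against 185.56, 196.1 and 74.56 FPKM in T2 berries (log2 fold change -2.27, SE 0.54, adjusted p = 0.00414). VIT_203s0063g01330 had 1.71, 5.24 and 7.74 FPKM in T1, against 28.99, 22.49 and 12.23 FPKM in T2 (-1.99, SE 0.34, adjusted p = 0.000126). VIT_203s0063g01220 had 2.46, 3.2 and 6.44 FPKM in T1, against 16.82, 15.69 and 9.55 FPKM in T2 (-1.62, SE 0.39, adjusted p = 0.00553). All T1 libraries of the 3 genes lay below all T2 libraries, in both treatments replicate C stood nearest the other group, and a fit on only these 6 libraries gave adjusted p of 0.0504, 0.0897 and 0.0605. UFGT, which attaches glucose to anthocyanidins and was taken as a ripening marker, averaged 30.3 FPKM in T1 and 90.6 FPKM in T2 berries at E-L 35. The paper reports that UFGT transcripts fall when light is excluded, so this level cannot tell ripening state from darkness. The part of a different ripening state in these folds was not tested.

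2 DELLA-term genes with weak matches were lower as evenly. VIT_204s0023g01380 had 13.11, 12.41 and 14.55 FPKM in T1 berries, against 28.78, 31.51 and 27.88 FPKM in T2 berries (-1.08, SE 0.16, adjusted p = 2.24e-05), and VIT_215s0048g00270 had 9.1, 7.8 and 8.97 FPKM in T1, against 16.66, 17.03 and 15.26 FPKM in T2 (-0.85, SE 0.12, adjusted p = 5.69e-06). Both kept their calls in the fit on these 6 libraries. They, and the GID1-term genes VIT_206s0009g00980 and VIT_207s0130g00340 below, were picked by a rule that required a call and groups without overlap. A GID1-term gene, VIT_206s0009g00980, had 2.89, 4.18 and 2.94 FPKM in T1, against 8.49, 11.02 and 7.99 FPKM in T2 (-1.23, adjusted p = 0.00318). Higher in T1 were VIT_207s0130g00340 (1.10, adjusted p = 0.0468) and VIT_218s0001g10800 (0.75, adjusted p = 0.00409), both with the GID1 term, and VIT_205s0077g00520 with the GA2ox term (0.55, adjusted p = 0.00412). None of these 3 was called in the fit on only the 6 libraries (adjusted p = 0.0834, 0.056 and 0.0779), and VIT_207s0130g00340 lost its call in 5 of the 6 fits that left out 1 library, with an adjusted p up to 0.236. In all, 14 of 95 were called, 5 higher (5.26%, against 6.71% of all genes) and 9 lower (9.47%, against 5%). No close match was called at this stage, and the count was 9 without replicate B of T1.

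**Figure D3:**
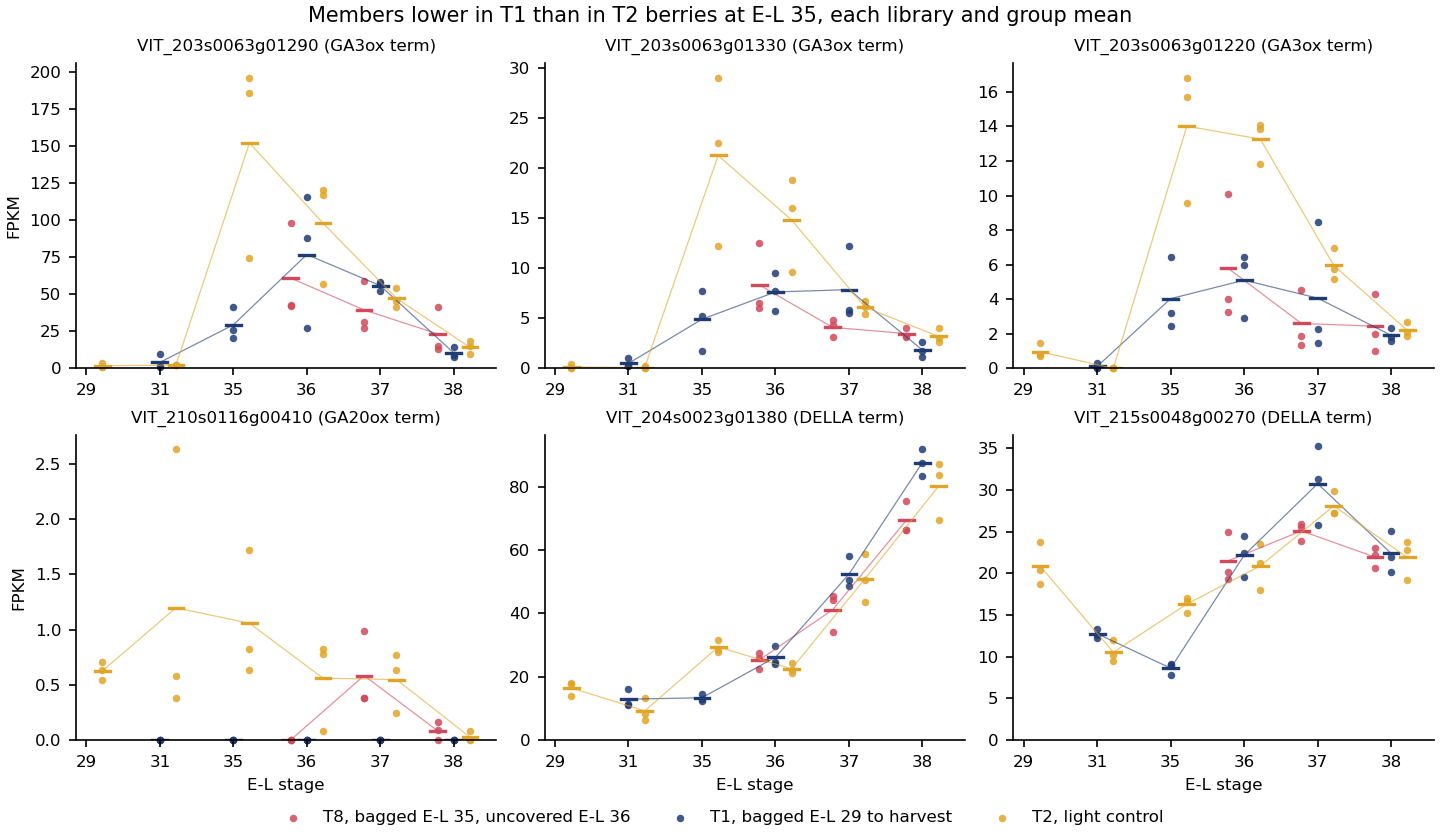
FPKM by E-L stage of 6 genes called lower in T1 than in T2 berries at E-L 35. Points are libraries and bars are group means of T8, T1 and T2. At E-L 35 no T1 point reaches a T2 point in any panel, and VIT_210s0116g00410 is at 0 in every T1 library and in T8 at E-L 36. For VIT_204s0023g01380 and VIT_215s0048g00270 the separation at E-L 35 was required by the rule that named them.

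Later in ripening few genes of the set separated T1 from T2. At E-L 36, 2 were called higher (1.07% of all genes) and 0 lower (1.21%): VIT_218s0001g10800 had 9.03, 7.29 and 8.76 FPKM in T1 berries, against 6.01, 5.1 and 3.3 FPKM in T2 berries (0.71, adjusted p = 0.0223), and VIT_205s0020g03010 had 3.94, 4.89 and 5.27 FPKM in T1, against 2.53, 1.28 and 2.34 FPKM in T2 (0.92, adjusted p = 0.0242). Both are GID1-term genes with another first term. Neither call was made without replicate C of T1, without replicate C of T2 or in the fit on only the 6 libraries. At E-L 37 limma called 0 genes (0.53% of all genes higher, 3.35% lower), with 17 of 95 at an unadjusted p under 0.05, and 2 were called higher after median-of-ratios scaling. At E-L 38 it called 0 (0.0639% higher, 0.516% lower), with 5 at an unadjusted p under 0.05. DELLA gene VIT_211s0016g04630 had the T1 mean furthest above T2 among the DELLA close matches at E-L 37, with 44.16, 42.56 and 44.34 FPKM in T1, against 33.33, 30.61 and 30.61 FPKM in T2 (0.46, SE 0.14, adjusted p = 0.0617), and it was named after its values were seen.

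VIT_210s0116g00410, which carries the GA20ox term at rank 5 behind aminocyclopropane carboxylate oxidase, was listed at 0 under the bags. That held for all 15 T1 libraries and for the 3 T8 libraries of E-L 36. In T2 it was above 0 in 16 of 18 libraries and in all 12 of E-L 31 to E-L 37, at 0.08 to 2.63 FPKM. In T8 it had 0.38, 0.99 and 0.38 FPKM at E-L 37, after uncovering, and 0.16, 0 and 0.09 FPKM at E-L 38. It was called lower in T1 at E-L 31 (-0.99, SE 0.23, adjusted p = 0.00117) and at E-L 35 (-1.0, SE 0.23, adjusted p = 0.00278). These are differences on the log2(FPKM + 1) scale, which depend on the 1 FPKM added, and no ratio is given against libraries listed at 0. The E-L 31 call was not made in the fit on only those 6 libraries (adjusted p = 0.181). No other gene of the 28940 was at 0 in these 18 bagged libraries and above 0 in as many T2 libraries. This pattern was defined from the gene itself after its values were seen, so it is a description, and the levels are low enough that they may rest on few reads.

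Berries bagged at E-L 35 and then uncovered were compared with light-grown ones to ask how these genes stood after a short dark period and on return to light. At E-L 36, 16 of the 95 were called higher in T8 than in T2 (16.8%, against 9.27% of all genes) and 1 lower (1.05%, against 2.64%). The median log2 fold change was 0.11 over the set and 0.07 over all genes. The 16 included both GA2ox weaker matches and 1 GA2ox close match, 7 of the 37 tested GID1-term and 3 of the 29 tested DELLA-term genes. DELLA gene VIT_201s0011g05260 had 27.79, 18.86 and 17.5 FPKM in T8 berries, against 7.7, 7.01 and 6.36 FPKM in T2 berries (log2 fold change 1.46, SE 0.20, adjusted p = 5.9e-06), and its lowest T8 library at this stage exceeded every T2 and T1 library of the study. DELLA gene VIT_214s0006g00640 had 47.71, 41.83 and 36.8 FPKM in T8, against 23.97, 26.55 and 24.33 FPKM in T2 (0.73, SE 0.11, adjusted p = 4.65e-05). The DELLA close match VIT_211s0016g04630 had 40.53, 37.48 and 43.57 FPKM in T8 and 39.87, 39.98 and 40.26 FPKM in T2 (0.01, SE 0.14, adjusted p = 0.989).

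The seed markers also stood highest in T8, though not every one of them. Of the 15 tested, 9 were called higher and 1 lower in T8 than in T2 at E-L 36. Their score at that stage was 5.52 ± 0.56 in T8, 2.76 ± 0.79 in T1 and 2.61 ± 0.77 in T2 berries (SD over 3 libraries). With this score as a covariate the fold of VIT_201s0011g05260 was 1.49 (adjusted p = 0.00173) and that of VIT_214s0006g00640 was 0.67 (adjusted p = 0.0121). Over the 42 libraries their deviations from group means had r = -0.03 and r = 0.11 with those of the score. The covariate fit called 7 of the set in place of 17. The share of all genes called in that fit is not given here, so the drop cannot be read as particular to the set. The GA2ox close match VIT_219s0140g00140, with 3.01, 3.62 and 3.82 FPKM in T8 and 1.72, 1.15 and 1.36 FPKM in T2 (0.90, SE 0.26, adjusted p = 0.0211), kept its fold of 0.90 there but not its call (adjusted p = 0.162), which was also lost in 4 of the 6 fits without 1 library. VIT_216s0022g02440, named carboxylesterase 120 by BLAST, had 3.38, 1.78 and 1.24 FPKM in T8 and 0.27, 0.28 and 0 FPKM in T2 (1.36, adjusted p = 0.00183), and 0.68 with the covariate (adjusted p = 0.329). The score separates T8 from the other groups by itself, so treatment and seed signal cannot be fully told apart.

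**Figure D4:**
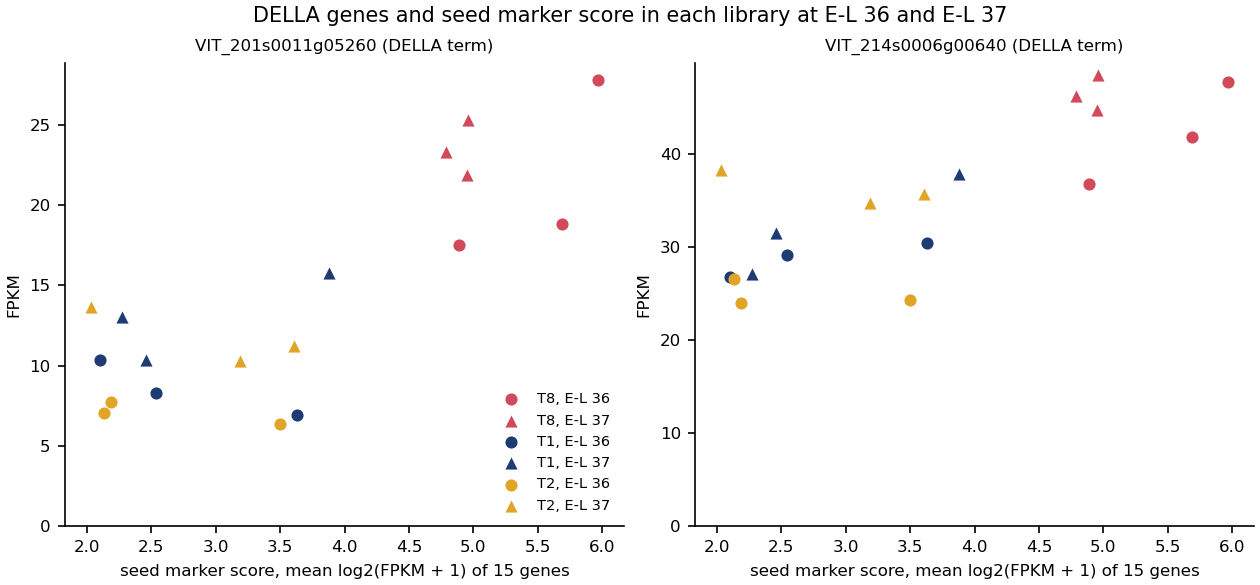
FPKM of the DELLA genes VIT_201s0011g05260 (left) and VIT_214s0006g00640 (right) against the seed marker score in each library at E-L 36 (circles) and E-L 37 (triangles). The 6 T8 libraries lie at the highest scores, and for VIT_201s0011g05260 all 6 lie above the T1 and T2 libraries. That gene was named by a rule that required T8 without overlap with T1 or T2 within a stage.

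Other genes higher in T8 at E-L 36 were weaker matches. VIT_205s0020g03010 had 9.9, 6.83 and 5.69 FPKM in T8, against 2.53, 1.28 and 2.34 FPKM in T2 (1.47, SE 0.23, adjusted p = 4.73e-05), and VIT_218s0001g10800 had 13.98, 10.01 and 10.73 FPKM in T8, against 6.01, 5.1 and 3.3 FPKM in T2 (1.13, SE 0.18, adjusted p = 4.42e-05). Both are GID1-term genes that were also called higher in T1 at E-L 36, in a comparison that shares the T2 libraries. VIT_208s0007g03040 (GA3ox term) had 9.72, 8.6 and 9.89 FPKM in T8, against 2.57, 4.12 and 3.49 FPKM in T2 (1.26, SE 0.27, adjusted p = 0.00152). The GA2ox-term pair VIT_205s0077g00510 and VIT_205s0077g00520 was higher by 0.60 and 0.69 on the log2 scale. Lower in T8 was VIT_203s0063g01220, with 3.28, 4.02 and 10.09 FPKM in T8, against 13.86, 14.11 and 11.84 FPKM in T2 (-1.20, SE 0.39, adjusted p = 0.0426). This call was lost with the seed score (adjusted p = 0.223), in the fit on only the 6 libraries (adjusted p = 0.118) and in 5 of the 6 fits that left out 1 of them (adjusted p up to 0.234), and its neighbours VIT_203s0063g01290 and VIT_203s0063g01330 were not called.

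After uncovering, at E-L 37, 6 genes were higher in T8 than in T2 (6.32%, against 3.16% of all genes) and 0 lower (2.48%). VIT_201s0011g05260 had 21.89, 25.31 and 23.34 FPKM in T8, against 10.27, 11.21 and 13.67 FPKM in T2 (0.95, SE 0.20, adjusted p = 0.00362; 0.98 with the seed score, adjusted p = 0.0191). VIT_214s0006g00640 had 44.73, 48.5 and 46.16 FPKM in T8, against 34.74, 35.67 and 38.28 FPKM in T2, which did not pass the threshold (0.35, SE 0.11, adjusted p = 0.0614) although the groups did not overlap. DELLA-term genes made up 4 of the 6, and 29 of the 95 tested genes. VIT_219s0090g01740 had 58.59, 74.09 and 76.63 FPKM in T8, against 43.21, 42.67 and 43.51 FPKM in T2 (0.67, SE 0.17, adjusted p = 0.0153), and VIT_206s0004g04960 had 10.84, 11.09 and 13.47 FPKM in T8, against 7.19, 7.23 and 6.5 FPKM in T2 (0.68, SE 0.16, adjusted p = 0.0109). Without replicate C of T8 or of T2 the count was 3 and neither of these 2 genes was called, and VIT_219s0090g01740 was not called without replicate B of T8 (adjusted p = 0.0709) either. At harvest, E-L 38, limma called 0 genes (0.0457% of all genes higher, 0.0228% lower), with 6 at an unadjusted p under 0.05. There VIT_201s0011g05260 had 14.1, 15.61 and 16.59 FPKM in T8 and 11.51, 13.05 and 11.89 FPKM in T2 (0.32, SE 0.20, adjusted p = 0.837).

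The T8 libraries were also set against T1, which was still bagged, and these comparisons share the T8 libraries with those above. At E-L 36, 7 genes were higher in T8 (7.37%, against 5.45% of all genes) and 0 lower (0.575%). VIT_201s0011g05260 had 27.79, 18.86 and 17.5 FPKM in T8, against 8.31, 10.35 and 6.91 FPKM in T1 (1.22, SE 0.20, adjusted p = 0.000129; 1.25 with the seed score, adjusted p = 0.0176). VIT_214s0006g00640 had 47.71, 41.83 and 36.8 FPKM in T8, against 29.08, 26.8 and 30.38 FPKM in T1 (0.53, SE 0.11, adjusted p = 0.00292), and was not called with the seed score (0.47, adjusted p = 0.15). VIT_210s0003g03490 was higher by 1.41 (adjusted p = 0.0289), a fold that was 0.35 with the seed score (adjusted p = 0.829). Without replicate A of T8, 2 genes were called.

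At E-L 37, 10 genes were higher in T8 than in T1 (10.5%, against 4.78% of all genes) and 0 lower (1.35%), or 8 and 1 after median-of-ratios scaling. VIT_201s0011g05260 had 21.89, 25.31 and 23.34 FPKM in T8, against 10.34, 13.01 and 15.75 FPKM in T1 (0.82, SE 0.20, adjusted p = 0.00846). VIT_214s0006g00640 had 44.73, 48.5 and 46.16 FPKM in T8, against 31.44, 27.12 and 37.79 FPKM in T1 (0.53, SE 0.11, adjusted p = 0.00346). With the seed score neither was called (adjusted p = 0.053 for each). VIT_205s0077g00510, a GA2ox-term gene, had 15.52, 14 and 16.39 FPKM in T8, against 7.96, 9.48 and 10.35 FPKM in T1 (0.67, SE 0.11, adjusted p = 0.000241), and kept its call with the score (0.62, adjusted p = 0.00959). VIT_219s0090g01740 did so as well (0.66, and 0.84 with the score, adjusted p = 0.0141). VIT_205s0049g00420, lower in T1 at E-L 31, had 1.59, 2.94 and 2.41 FPKM in T8, against 0.23, 0.35 and 1.6 FPKM in T1 (1.00, SE 0.26, adjusted p = 0.0161), and lost its call with the score (0.76, adjusted p = 0.201) and in 4 of the 6 fits without 1 library. The count was 3 without replicate B of T1, 5 without its replicate A, 4 without replicate B of T8 and 5 without its replicate C. The call of VIT_201s0011g05260 was not made without replicate A of T1 (0.68, adjusted p = 0.0718), nor that of VIT_214s0006g00640 without replicate B of T1 (0.42, adjusted p = 0.058). In the fit on only the 6 libraries no gene of the set was called. At E-L 38 limma called 0 genes (0.621% of all genes higher, 0.0959% lower), with 11 at an unadjusted p under 0.05.

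**Figure D5:**
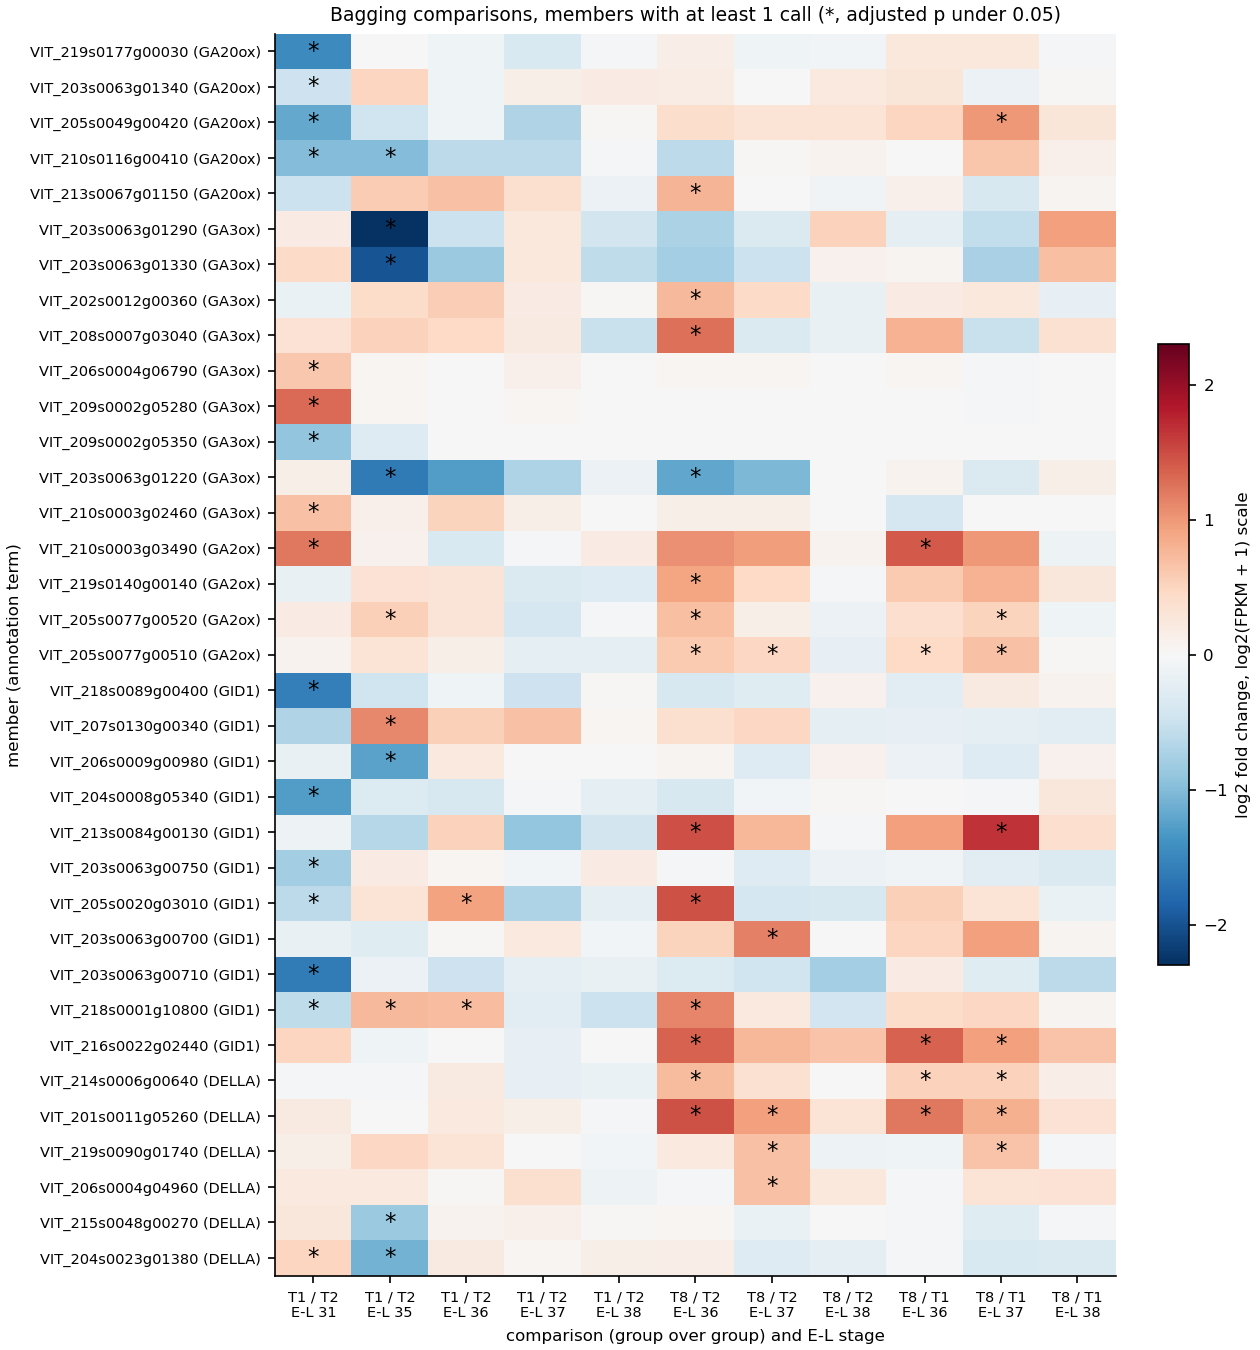
Log2 fold changes, on the log2(FPKM + 1) scale, of the 35 named genes of the set with a call in a bagging comparison. Columns are the comparisons with their E-L stage, rows are genes with their annotation term, and the marks show the 59 calls at an adjusted p under 0.05. Calls are most frequent at E-L 31 and 35 for T1 over T2 and at E-L 36 and 37 for T8, and no comparison at E-L 38 has one.

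The change of the bagging effect between stages was tested as an interaction. From E-L 31 to E-L 35 the difference between T1 and T2 moved up in 14 of the 95 genes (14.7%, against 14% of all genes) and down in 10 (10.5%, against 9.75%), or in 10 and 13 after median-of-ratios scaling, so the set moved about as often as all genes. Of the 14, 10 carried the GID1 term, the largest class with 37 of the 95 tested genes. The largest of the 10 falls was that of VIT_203s0063g01290 (-2.46). The DELLA-term gene VIT_204s0023g01380 was called lower in T1 at E-L 35 and had a fold of 0.49 at E-L 31 (adjusted p = 0.0235; interaction -1.57, SE 0.23, adjusted p = 9.87e-06). The interaction was called in all 12 fits without 1 library, but the E-L 31 call was lost with the seed score (0.39, adjusted p = 0.124), in the fit on only the groups compared (adjusted p = 0.354) and in 3 of the 6 fits without 1 library. From E-L 36 to E-L 37 the difference between T8 and T2 moved up in 0 genes (0.393% of all genes) and down in 4 (4.21%, against 1.73%), and the DELLA genes VIT_201s0011g05260 (-0.50, SE 0.28, adjusted p = 0.383) and VIT_214s0006g00640 (-0.38, SE 0.16, adjusted p = 0.24) were not among them.

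Other genes of the pathway, found by annotation text, numbered 49, of which 41 were tested: 2 of 7 ent-copalyl diphosphate synthases and 1 of 6 ent-kaurene synthases, which build the diterpene skeleton, 1 ent-kaurene oxidase and 2 of 3 ent-kaurenoic acid oxidases, which oxidise it, 3 of 4 genes for the F-box protein GID2, which marks DELLA proteins for degradation, 3 SPINDLY genes, 2 gibberellin-regulated peptide (GASA) genes and 27 genes with a phytochrome-interacting factor term, a loose text match that also takes in other bHLH factors. In T1 against T2, 9 of the 41 were higher at E-L 31 (22%, against 13% of all genes) and 6 lower (14.6%, against 16%), and at E-L 35 3 were higher (7.32%, against 6.71%) and 1 lower (2.44%, against 5%). Only 1 was higher at E-L 36 (2.44%, against 1.07%), and 3 were lower at E-L 37 (7.32%, against 3.35%) and 2 at E-L 38 (4.88%, against 0.516%). In T8 against T2, 10 were higher at E-L 36 (24.4%, against 9.27%) and 1 lower (2.44%, against 2.64%), 1 was higher at E-L 37 (2.44%, against 3.16%), and limma called 0 at E-L 38. In T8 against T1, 3, 5 and 2 were higher over these 3 stages (7.32%, 12.2% and 4.88%, against 5.45%, 4.78% and 0.621%), and 1 was lower at E-L 37 (2.44%, against 1.35%). Most of these calls were of the loose phytochrome-interacting factor match. It held 7 of the 9 higher and 5 of the 6 lower in T1 at E-L 31. It also held 8 of the 10 higher in T8 over T2 at E-L 36, so these shares are not those of gibberellin pathway genes alone. No ent-copalyl diphosphate or ent-kaurene synthase was called in any of these comparisons. The ent-kaurene oxidase gene VIT_218s0001g11320 had 3.73, 3.72 and 3.37 FPKM in T1 berries at E-L 35, against 1.4, 1.41 and 2.23 FPKM in T2 berries (0.79). The F-box gene VIT_218s0001g09700 averaged 130.21 ± 31.0 FPKM in T1 at E-L 31 and 186.4 ± 25.9 FPKM in T2 (SD, n = 3 each; -0.53, SE 0.12, adjusted p = 0.000831). VIT_217s0000g00430, with the phytochrome-interacting factor term, averaged 122.73 ± 21.7 FPKM in T1 at E-L 31 and 263.97 ± 35.0 FPKM in T2 (SD, n = 3 each; -1.10, SE 0.11, adjusted p = 9.88e-09).

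The GASA gene VIT_201s0026g00620, gibberellin-regulated protein 14, had 58.7, 37.7 and 30.76 FPKM in T8 berries at E-L 36, against 0, 0 and 1.12 FPKM in T2 berries (5.03, SE 0.82, adjusted p = 8.84e-05), and 19.64, 24.45 and 13.38 FPKM in T8 at E-L 37, against 0.38, 0.81 and 0 FPKM in T2 (3.85, SE 0.82, adjusted p = 0.00499). Its deviations followed the seed score with r = 0.89 over the 42 libraries, and with the score as a covariate its folds were 1.28 (adjusted p = 0.167) and 1.34 (adjusted p = 0.0898). VIT_215s0021g02690, with the phytochrome-interacting factor term, also followed the seed score (r = 0.79). It averaged 13.2 ± 6.55 FPKM in T8 and 1.7 ± 0.682 FPKM in T2 at E-L 36 (SD, n = 3 each; 2.32, SE 0.47, adjusted p = 0.000984), and its fold was 0.43 with the covariate (adjusted p = 0.634).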

How the data were processed

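RNA of deseeded berries was sequenced as 50-base single reads from poly(A) libraries. The authors aligned the reads to the PN40024 V2 genome with Bowtie (Bowtie2 2.2.5 in the submitters' processing notes) and deposited FPKM values per gene, rounded to 2 decimals, in 42 libraries. Values scaled to mapped reads and length keep no depth, and FPKM of one gene depend on what all others take. The annotation columns come from the same table. Coordinates and sequences were not used here, since no genome of that build was at hand.

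Genes averaging at least 1 FPKM in a group (21902) were fitted as log2(FPKM + 1) in 1 limma model of 14 groups without covariates (limma 3.58.1, R 4.3.3, empirical Bayes with trend, 28 residual degrees of freedom), with Benjamini-Hochberg adjustment within each comparison. The code was tested on simulated data. Named are all tested oxidase-term genes and the 2 highest per class. Added were up to 4 GID1- or DELLA-term genes per bagging comparison with the largest called fold, at least 2 FPKM and no overlap. A further rule, for GID1- and DELLA-term genes whose annotation names the protein, took in no gene. By these rules GID1- and DELLA-term genes were therefore named only through their values. Genes and lists were chosen with earlier results of these data known. Alternatives changed the pseudocount (0.1), the filter (none, 5 FPKM), the scaling (median of ratios), the samples fitted, a replicate block, a seed-score covariate and single libraries. Replicates are biological, with no batch given.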

Additional observations from a re-analysis of the deposited data

Results flagged for a closer look

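For 19 differences the bagging effect on a named gene was not the same at 2 stages, by the interaction term of the limma fit (adjusted p under 0.05). Several of these genes were named for a large called fold at 1 of the 2 stages. Their interactions reuse those values and lend no separate support. Of all genes tested, the T1 interaction was called up in 14% and down in 9.75%, and that of T8 in 0.393% and 1.73%. In 16 of the 19 differences the T1 effect, T1 minus T2 on the log2(FPKM + 1) scale, changed between E-L 31 and E-L 35. The effect at E-L 35 minus that at E-L 31 was -2.46 for VIT_203s0063g01290, -2.43 for VIT_203s0063g01330 and -1.76 for VIT_203s0063g01220, the 3 neighbouring GA3ox-term genes that did not exceed 9.63 FPKM in any library at E-L 31. It was -1.57 for VIT_204s0023g01380 and -1.11 for VIT_215s0048g00270, both with the DELLA term, and -1.06 for VIT_206s0009g00980 with the GID1 term. It was positive for the GID1-term genes VIT_207s0130g00340 (1.79), VIT_203s0063g00710 (1.48), VIT_218s0001g10800 (1.33), VIT_218s0089g00400 (1.12), VIT_203s0063g00750 (0.99), VIT_204s0008g05340 (0.97) and VIT_205s0020g03010 (0.92), and for the GA20ox-term genes VIT_219s0177g00030 (1.45), VIT_213s0067g01150 (1.08) and VIT_203s0063g01340 (0.97). VIT_218s0001g10800 had effects of opposite sign, -0.58 at E-L 31 (adjusted p = 0.0125) and 0.75 at E-L 35 (adjusted p = 0.00409). The E-L 31 call was lost with the seed score (adjusted p = 0.0503), without replicate B of T1 (0.102) or replicate C of T2 (0.0547), and both calls in fits on only the groups compared (0.098 and 0.056), while the interaction was called in all of these fits.

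In the other 3 the T8 effect, T8 minus T2, changed between E-L 36 and E-L 37. The effect at E-L 37 minus that at E-L 36 was -1.87 for VIT_205s0020g03010 and -0.91 for VIT_218s0001g10800, both with the GID1 term, and -1.58 for VIT_208s0007g03040 with the GA3ox term. All 3 were higher in T8 at E-L 36 and not called at E-L 37.

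Of the 19 differences, 9 were called in every fit that left out 1 library and 10 were lost at least once. Those of VIT_206s0009g00980 and, for T8, VIT_218s0001g10800 were each lost in 9 of 12 such fits (adjusted p up to 0.172 and 0.154), that of VIT_205s0020g03010 for T1 in 8 (up to 0.149) and that of VIT_218s0089g00400 in 7 (up to 0.15). VIT_203s0063g01220 and VIT_208s0007g03040 lost theirs in 3 each, VIT_204s0008g05340 in 2, and VIT_203s0063g01290, VIT_207s0130g00340 and VIT_213s0067g01150 in 1 each. Without replicate A of T1 at E-L 31 the value of VIT_203s0063g01290 was -1.69 (adjusted p = 0.0742). Fits on only the groups compared kept 11 of the 19, and 17 were kept with the seed score as a covariate.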

How the results depend on the processing

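The counts of tested genes called are given first, without the shares of all genes called in the same fits. With the seed score as a covariate they were 12 for T1 against T2 at E-L 31 (22 without it), 7 for T8 against T2 at E-L 36 (17), 1 for T8 against T1 at that stage (7) and 2 at the next (10). Fits on only the groups compared, which have fewer samples to estimate the spread, called 1, 8 and 0 for T1 against T2 at the first 3 stages (22, 14 and 2), 2 and 0 for T8 against T1 at E-L 36 and 37, and 10 for the T1 interaction (24). For T1 against T2 at E-L 37, where 0 were called, the pseudocount of 0.1, no filter and scaling each gave 2, the 5 FPKM filter gave 3, and the block, the covariate and the fit on only those groups gave 1 each, and the cause was not tested.

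Leaving out 1 library gave 16 to 26, 9 to 15, 0 to 2, 0 to 3 and 0 to 0 for T1 against T2 at the 5 stages, 12 to 14, 3 to 6 and 0 to 0 for T8 against T2, 2 to 7, 3 to 11 and 0 to 0 for T8 against T1, 51 to 61, 59 to 63, 18 to 27, 26 to 31 and 20 to 30 for the 5 steps of T2, 15 to 26 for the T1 interaction and 1 to 4 for that of T8. The count for T2 at E-L 36 against E-L 35 was 18 without replicate C of E-L 35, and that at E-L 38 against E-L 37 was 20 without replicate B of either stage and 21 without replicate A of E-L 38. That of the T1 interaction was 15 without replicate B of T1 at E-L 35.

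For single named genes, no call changed direction. Of 192 calls, 174 were kept with scaling, 178 with no filter, 172 with the smaller pseudocount, 162 with the covariate and 121 in fits on only the groups compared. Over all tested genes, samples of the same letter did not deviate together on average (mean r = 0.00222 within a letter across groups, -0.00108 between letters, and 17 of 42 libraries nearest their own letter). Single pairs of the same letter ranged from r = -0.297 to 0.328, so shared deviation of some libraries or genes was not excluded. The seed score of replicate C was the highest of its group in T2 at E-L 31, 35 and 36 and in T1 at E-L 35, 36 and 37. It was the lowest in T2 at E-L 37 and 38 and in T8 at E-L 36 and 37. The replicate block kept 187 of the 192 calls. The study states total reads per library, but reads per gene were not used, so low values, such as those of VIT_210s0116g00410, could be given no counting error.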
